A study of Homo sapiens with 4 samples.

Results

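The transcripts of 46 genes for receptor tyrosine kinases and their ligands were compared between wild-type cells (WT) and ZCCHC4 KO1 cells, in which the RNA methyltransferase gene ZCCHC4 had been targeted with CRISPR/Cas9. Earlier results of these data were known when the 46 symbols were chosen, out of 16658 genes with a row in the table. They were 22 receptors and 24 ligands, listed by gene family, though not every gene of a family was among them. Of these, 42 had a row, and 28, made up of 15 receptors and 13 ligands, had an FPKM of at least 1 in 2 or more libraries and were tested. A further 14 stayed under that level, and HGF, FGF1, FGF19 and PDGFRA had no row and were not analysed here. The study asked by RNA-seq which genes changed when ZCCHC4 was disrupted. Both groups were labelled HepG2, a line from a human liver tumor, were grown to 80% confluence in DMEM with 10% serum and were untreated, with 2 libraries per group. ZCCHC4 KO1 is 1 knockout line, so that an effect of the gene and a feature of that line cannot be told apart. Nothing in the labels states that the 2 libraries of a group came from separate cultures, so that p-values measure the spread between these libraries, which may be technical.

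A receptor tyrosine kinase spans the plasma membrane, binds a ligand outside the cell and is thereby paired with another receptor molecule, and its kinase domain then phosphorylates tyrosines that recruit adaptors. The RAS-ERK and PI3K-AKT routes carry the signal onward to proliferation, survival and movement. In liver, MET and the EGF receptor act in regeneration, and FGFR4 senses the intestinal hormone FGF19 in the control of bile acid synthesis.

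2 of the 28 tested members passed an FDR of 0.05. EPHA2, a receptor for ephrin-A ligands on epithelial cells, was 1.71-fold higher in ZCCHC4 KO1 cells, and MST1R, the receptor also called RON that binds macrophage-stimulating protein, was 2.94-fold lower, both as ratios of mean FPKM. FPKM is the number of fragments of a gene scaled by its transcript length and by the mapped fragments of the library. The 1 member called higher was 3.57% of those tested, beside 1.5% of the 10726 genes tested, and the 1 called lower was 3.57% beside 4.48%. No member met the thresholds given in the study (P under 0.05, an FDR under 0.001, 2-fold or more) in limma. By these, 2 of all genes were higher (0.0186%) and 6 lower (0.0559%). The paper reports far more genes at its thresholds and does not name its test. At an unadjusted p below 0.05, 3 members were higher (EPHA2, FGFR3 and ERBB3) and 3 lower (MST1R, EFNA1 and IGF1R), where 8.96% and 13.9% of all genes were. Of the 28, 10 had both ZCCHC4 KO1 libraries above both WT libraries (35.7%, beside 23.1% of all genes), 9 had both below (32.1%, beside 28.5%) and 9 overlapped. The median log2 fold change was -0.065 over the members and -0.029 over all genes tested. A fold change on the log2 scale here is that of log2(FPKM + 1), a scale on which low genes appear to change less than they do.

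The bases before the transcription starts of 3 receptors are shown because EPHA2 and MST1R were the called members and FGFR3 had the next smallest adjusted p. Each line gives the 250 bases upstream of the start, 5′ to 3′ on the strand of the gene, from RefSeq for GRCh38.p14. Capitals mark the GC box GGGCGG, the letters recognised by SP1-type factors, searched on both strands.
EPHA2: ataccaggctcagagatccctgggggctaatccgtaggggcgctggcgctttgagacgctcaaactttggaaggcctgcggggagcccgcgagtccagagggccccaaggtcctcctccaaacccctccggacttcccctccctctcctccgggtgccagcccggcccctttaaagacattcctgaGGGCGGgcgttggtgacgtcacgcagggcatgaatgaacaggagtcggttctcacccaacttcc
MST1R: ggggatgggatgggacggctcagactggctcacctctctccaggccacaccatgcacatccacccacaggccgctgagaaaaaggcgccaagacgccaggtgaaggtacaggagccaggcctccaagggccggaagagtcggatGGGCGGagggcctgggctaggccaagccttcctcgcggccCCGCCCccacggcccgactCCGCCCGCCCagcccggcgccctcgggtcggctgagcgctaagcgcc
FGFR3: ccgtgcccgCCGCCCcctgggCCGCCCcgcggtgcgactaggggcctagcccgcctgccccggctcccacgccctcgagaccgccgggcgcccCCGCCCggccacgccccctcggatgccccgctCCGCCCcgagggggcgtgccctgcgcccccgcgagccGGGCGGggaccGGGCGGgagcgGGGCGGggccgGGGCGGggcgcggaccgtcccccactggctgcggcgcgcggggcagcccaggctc
The EPHA2 stretch lies at chr1:16156070-16156319 on the minus strand, has 63.2% G or C and held 1 GC box. The MST1R stretch lies at chr3:49903874-49904123 on the minus strand, has 70.8% G or C and held 4 GC boxes, of which 2 overlap. The FGFR3 stretch lies at chr4:1793043-1793292 on the plus strand, has 86.8% G or C and held 8. TATAAA, searched in the same way, was in none of the 3. Among the promoters of the table, 59 belonged to 40 of the members, and 40 of the 59 (67.8%) held GGGCGG, beside 42.6% of all 35116 promoters. TATAAA was in 7 of the 59 (11.9%), beside 10.7% of all. A match of letters is a description and shows no binding.

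ZCCHC4 itself, on chromosome 4 from 25312774 to 25370383 of GRCh38, stood at 7.22 and 5.44 FPKM in WT and fell to 1.08 and 2.29 FPKM in ZCCHC4 KO1. The log2 fold change was -1.48 (SE 0.287, Benjamini-Hochberg adjusted p = 0.0448 by limma). Transcripts that carry a disrupted reading frame can still be counted. Without WT replicate 1 the adjusted p was 0.0921. The FPKM sums of the 4 libraries ran from 512417.0 to 565198.6, and the read depth is unknown. Markers of the labelled cell type were low. Of 23 hepatocyte genes, 15 had a row and none reached an FPKM of 1, and AFP was between 0 and 0.05. The keratins KRT7, KRT8 and KRT18 ran from 1294.42 to 3601.92 FPKM, whereas KRT19 and EPCAM were at 0.11 or less.

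The libraries of a group also differed from each other along the GC content of the transcripts. Over the 28 members, the Spearman correlation of GC content with replicate 2 minus replicate 1, on the log2 scale, was 0.763 in WT and -0.796 in ZCCHC4 KO1, and over 10559 genes it was 0.725 and -0.784. These are correlations across genes of the same libraries, and genes are not independent replicates. Of the 6 tested members with less than 45% G or C, 5 had more signal in WT replicate 1 than 2 and in ZCCHC4 KO1 replicate 2 than 1, as did 4 of the other 22. The part of this difference between libraries in the results was not tested beyond the settings named below.

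**Figure D1:**
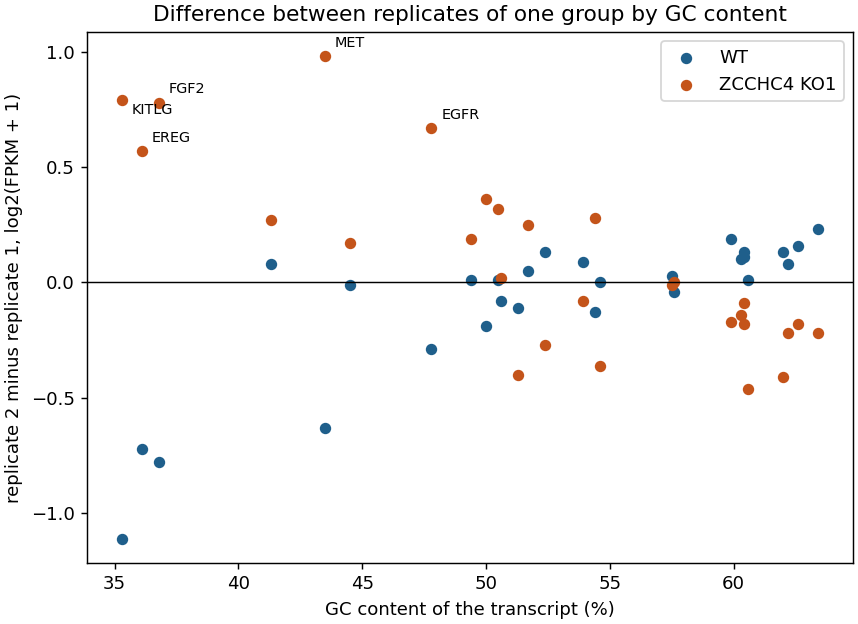
Difference between replicate 2 and replicate 1 within each group, on log2(FPKM + 1), against the GC content of the transcript in percent, 1 point per tested member and group (28 members). KITLG, FGF2, EREG, MET and EGFR lie below 0 in WT and above 0 in ZCCHC4 KO1.

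Among the EGF-family receptors, EGFR was the most abundant member of all on the FPKM scale and ERBB4 was close to 0. EGFR, the receptor for EGF, TGFA, HBEGF and other ligands, had 121.33 and 98.99 FPKM in WT, and 92.59 and 147.97 in ZCCHC4 KO1. Both WT values lay between the ZCCHC4 KO1 values, and the log2 fold change was 0.09 (95% interval -0.51 to 0.70). ERBB2, which has no known ligand of its own and pairs with the other family members, had 14.01 and 15.25 FPKM in WT and 13.38 and 11.65 in ZCCHC4 KO1. Both ZCCHC4 KO1 values were below both WT values, by a log2 fold change of -0.21 (SE 0.171, adjusted p = 0.533). ERBB3, a neuregulin receptor with a weak kinase that signals through its partners, had 1.42 and 1.25 FPKM in WT and 3.24 and 2.21 in ZCCHC4 KO1. These groups did not overlap and the ratio of means was 2.04, with a log2 fold change of 0.66 (SE 0.214) and an adjusted p of 0.142. ERBB4, another neuregulin receptor, was at 0.12 FPKM or less in every library.

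The ligands of this family were led by NRG1, the neuregulin that binds ERBB3 and ERBB4, at 19.31 and 20.53 FPKM in WT and 13.7 and 16.73 in ZCCHC4 KO1. Both ZCCHC4 KO1 libraries were lower, with a log2 fold change of -0.37 (SE 0.171, adjusted p = 0.269). On chromosome 8 the log2 fold changes of its 20 nearest tested genes had a median of -0.479, and 18 of the 20 were below 0. HBEGF, a membrane-anchored ligand of EGFR, had 2.42 and 2.23 FPKM in WT and 3.29 and 3.34 in ZCCHC4 KO1, which do not overlap (log2 fold change 0.38, SE 0.184, adjusted p = 0.296). TGFA, a further EGFR ligand, was at 1.4 and 1.39 FPKM in WT and 1.53 and 1.84 in ZCCHC4 KO1. EREG, epiregulin, overlapped between the groups at 1.74 to 4.05 FPKM. AREG, EGF and BTC were under 1 FPKM in all 4 libraries, AREG being the highest of them at 0.32 to 0.7. In limma none of the 4 ligands of this family that were tested had an unadjusted p below 0.05.

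**Figure D2:**
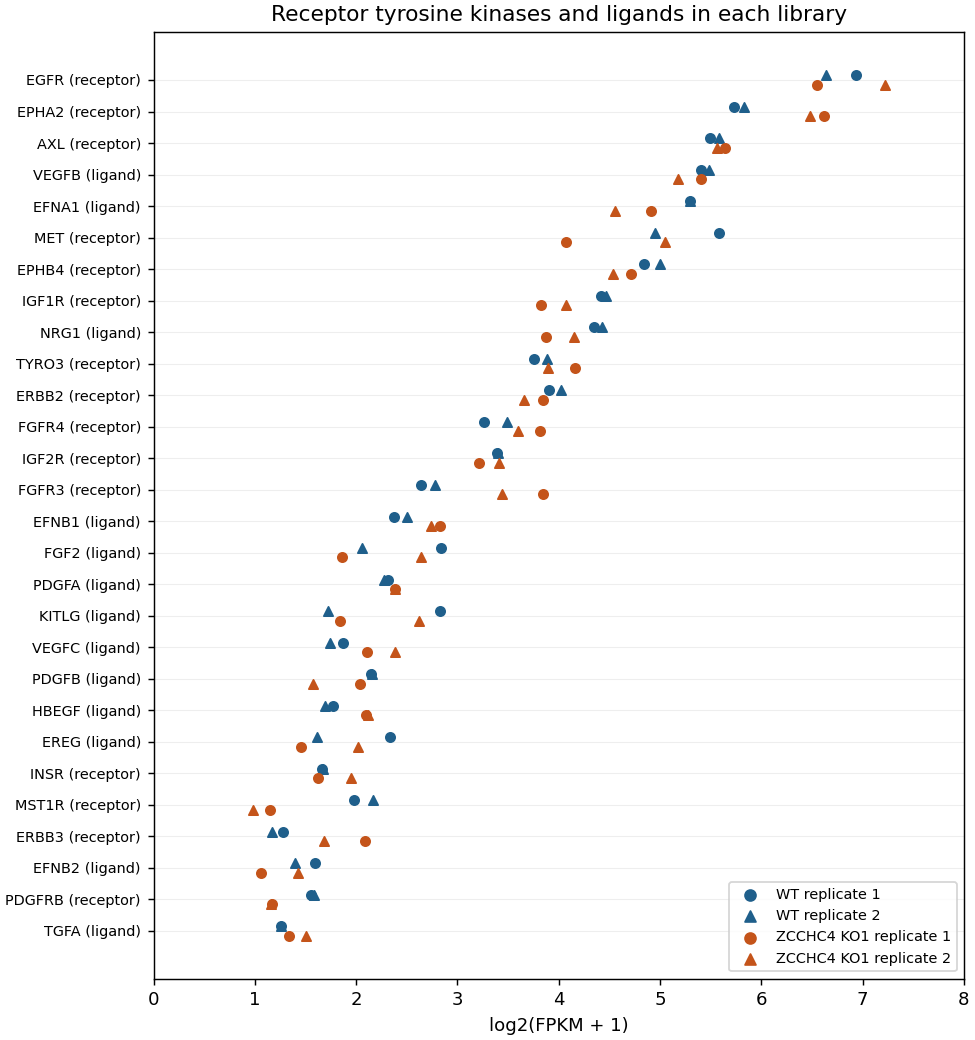
FPKM of the 28 tested members on the scale log2(FPKM + 1), 1 point per library, with circles for replicate 1, triangles for replicate 2, blue for WT and orange for ZCCHC4 KO1, ordered by the mean. EGFR, EPHA2 and AXL are at the top, and the EPHA2 points of the 2 groups are apart.

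MET and MST1R are sister receptors of a family that drives the scattering of epithelial cells. MST1R (Entrez 4486, chromosome 3 from 49887002 to 49903873) had 2.94 and 3.5 FPKM in WT and fell to 1.22 and 0.97 FPKM in ZCCHC4 KO1. The means were 3.22 ± 0.396 and 1.09 ± 0.177 (SD, n = 2), the groups did not overlap, and the log2 fold change was -1.01 (SE 0.192, 95% interval -1.48 to -0.54, adjusted p = 0.0422 from limma). The call was lost when any of the 4 libraries was left out (adjusted p from 0.0533 to 0.300), with log2 fold changes from -1.106 to -0.914. Settings across all 4 libraries ended it as well, among them no filter on low values (adjusted p = 0.0933, in a range of 4.12e-16 to 0.117 over 9 settings). The median log2 fold change of its 20 nearest tested genes was -0.0102. MET, the receptor for HGF, was more abundant, at 46.77 and 29.9 FPKM in WT and 15.79 and 32.01 in ZCCHC4 KO1. ZCCHC4 KO1 replicate 2 lay above WT replicate 2, so that the groups overlapped, and the log2 fold change of -0.71 had an interval of -1.61 to 0.20. The log2 fold change of MET was -1.194 without ZCCHC4 KO1 replicate 2 and -0.219 without ZCCHC4 KO1 replicate 1. MET transcripts have 43.5% G or C, against 59.9% for MST1R.

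The TAM receptors, which bind the ligands GAS6 and PROS1 and take part in the clearance of dying cells, were close to each other in the 2 groups. AXL had 44.02 and 46.84 FPKM in WT and 49.01 and 46.35 in ZCCHC4 KO1, a log2 fold change of 0.07 with an interval of -0.25 to 0.39. TYRO3 had 12.48 and 13.75 FPKM in WT and 16.94 and 13.86 in ZCCHC4 KO1, with a log2 fold change of 0.21 (SE 0.18, adjusted p = 0.557). GAS6 was at 0.08 to 0.12 FPKM in the 4 libraries. PROS1, protein S, which is not among the 46 genes and was named after its values were seen, had 6.21 and 4.16 FPKM in WT and 1.66 and 2.86 in ZCCHC4 KO1 (log2 fold change -0.93, SE 0.281, adjusted p = 0.122).

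The insulin and IGF receptors were represented by 3 genes. IGF1R, the kinase that binds IGF1 and IGF2, had 20.35 and 21.06 FPKM in WT and 13.16 and 15.86 in ZCCHC4 KO1. Neither ZCCHC4 KO1 library reached the lower WT value, and the log2 fold change was -0.49 (SE 0.167, adjusted p = 0.156). IGF2R, the mannose 6-phosphate receptor that takes up IGF2 for degradation and has no kinase domain, had 9.52 and 9.56 FPKM in WT and 8.3 and 9.6 in ZCCHC4 KO1. INSR, the insulin receptor, had 2.16 and 2.18 FPKM in WT and 2.09 and 2.87 in ZCCHC4 KO1. These 2 overlapped between the groups, with log2 fold changes of -0.09 and 0.13. IGF1 reached 0.18 FPKM at most and IGF2 0.63, and neither was tested.

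FGF receptors bind FGFs together with heparan sulfate or klotho proteins. FGFR3 (Entrez 2261, chromosome 4 from 1793293 to 1808867) had 5.25 and 5.86 FPKM in WT and 13.34 and 9.83 in ZCCHC4 KO1. Means were 5.55 ± 0.431 and 11.6 ± 2.48 (SD, n = 2), a ratio of 2.09, and the groups did not overlap. Its log2 fold change of 0.93 was the largest positive estimate among the tested members (SE 0.216, 95% interval 0.39 to 1.46), and its adjusted p was 0.0697. Over 10 settings with all libraries the adjusted p from limma ran from 5.48e-13 to 0.215. These settings include the crossed pairing of replicates chosen after seeing the data. FGFR4 had 8.57 and 10.2 FPKM in WT and 13.06 and 11.1 in ZCCHC4 KO1, again without overlap, with a log2 fold change of 0.33 (SE 0.191, adjusted p = 0.371). Its 20 nearest tested genes had a median of 0.241. FGFR2 was at 0.15 to 0.37 FPKM and was not tested. Of the ligands, FGF2, a growth factor for fibroblasts and endothelium, overlapped between the groups at 2.64 to 6.13 FPKM, and FGF5 was at 0.32 FPKM or less.

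KIT was close to 0, whereas PDGFRB, PDGFA, PDGFB and KITLG were present. PDGFRB, a receptor typical of mesenchymal cells, had 1.94 and 2 FPKM in WT and 1.25 and 1.23 in ZCCHC4 KO1, which do not overlap, with a log2 fold change of -0.41 (SE 0.172, adjusted p = 0.235). KIT was listed at 0 in 3 libraries and at 0.01 in the other. PDGFA and PDGFB, the chains of PDGF dimers, did not overlap between the groups. PDGFA had 3.98 and 3.85 FPKM in WT and 4.23 and 4.23 in ZCCHC4 KO1. PDGFB had 3.43 and 3.47 FPKM in WT and 3.1 and 1.98 in ZCCHC4 KO1. Their log2 fold changes were 0.09 and -0.35 (adjusted p = 0.826 and 0.436 from limma). KITLG, stem cell factor, was at 2.29 to 6.08 FPKM with the widest interval of the tested members, -1.13 to 1.05 around -0.04. PDGFC was at 0.02 or less. The 8 fibroblast markers, PDGFRB among them, summed to 34.33 and 29.49 FPKM in WT and to 11.36 and 14.3 FPKM in ZCCHC4 KO1. Of these 8, 5 were tested, 3 were called lower (FAP, COL1A1 and COL3A1), of which FAP passed the filter through WT alone and so had to differ. LUM was tested too, at 1.86 and 1.39 FPKM in WT and 1.81 and 3.79 in ZCCHC4 KO1 (log2 fold change 0.49), and THY1 and COL1A2 were at 0.04 or less. Their part in the PDGFRB values was not tested, and in bulk RNA fewer cells of a type and less RNA per cell cannot be told apart.

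EPH receptors and ephrins are both bound to membranes and signal between touching cells. EPHA2 (Entrez 1969, chromosome 1 from 16124337 to 16156069) had 52.17 and 56 FPKM in WT and rose to 97.2 and 88.1 FPKM in ZCCHC4 KO1. The means were 54.1 ± 2.71 and 92.7 ± 6.43 (SD, n = 2), the groups were well apart, and the log2 fold change was 0.76 (SE 0.131, 95% interval 0.44 to 1.09, adjusted p = 0.0319 from limma). The call was lost without WT replicate 1 (adjusted p = 0.334) and without WT replicate 2 (0.192), and held without either ZCCHC4 KO1 library (0.0395 and 0.00755). Settings across all 4 libraries ended it as well, among them no filter on low values and eBayes without a trend (adjusted p = 0.0611 and 0.0603, in a range of 4.85e-14 to 0.0907 over 10 settings). The median log2 fold change of its 20 nearest tested genes was 0.0765, 9 of them below 0. The 8 markers of simple epithelium, the kind of cell in which EPHA2 is usual, summed to 5245.03 and 6096.58 FPKM in WT. In ZCCHC4 KO1 they summed to 9262.95 and 7071.91 FPKM. Both sums came mostly from KRT7, KRT8 and KRT18. Of the 8, 4 were tested and none was called. KRT8, KRT18 and CLDN4 were higher in both ZCCHC4 KO1 libraries. KRT7 overlapped, at 2359.14 FPKM in WT replicate 2 and 2351.8 in ZCCHC4 KO1 replicate 2. KRT19, EPCAM, SOX9 and CDH1 were under the filter at 0.6 FPKM or less, with KRT19 and SOX9 lower in ZCCHC4 KO1. The part of these markers in the EPHA2 values was not tested.

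EFNA1, the ephrin that binds EPHA2, had 38.31 and 38.4 FPKM in WT and 29.11 and 22.54 in ZCCHC4 KO1. Neither ZCCHC4 KO1 library reached the WT values, with a log2 fold change of -0.56 (SE 0.169, adjusted p = 0.119). Without ZCCHC4 KO1 replicate 1 the log2 fold change of EFNA1 was -0.741. EPHB4, the receptor for EFNB2 and known from the sorting of arteries and veins, had 27.61 and 31.05 FPKM in WT and 25.29 and 22.24 in ZCCHC4 KO1, with a log2 fold change of -0.29 (SE 0.154, adjusted p = 0.328). EFNB2 was at 1.09 to 2.02 FPKM and overlapped. EFNB1 had 4.17 and 4.66 FPKM in WT and 6.11 and 5.67 in ZCCHC4 KO1, without overlap (log2 fold change 0.35, SE 0.19, adjusted p = 0.349). EPHB2, a receptor of ephrin-B ligands, had 0.81 and 0.95 FPKM in WT and 0.13 and 0.11 FPKM in ZCCHC4 KO1, a ratio of 7.33 between the WT and ZCCHC4 KO1 means, and was under the filter. In the limma fit with no filter on low values it had a log2 fold change of -0.75 (adjusted p = 0.0324). It was the 1 member called of 42 in that fit, where 1.57% of all genes were called lower.

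**Figure D3:**
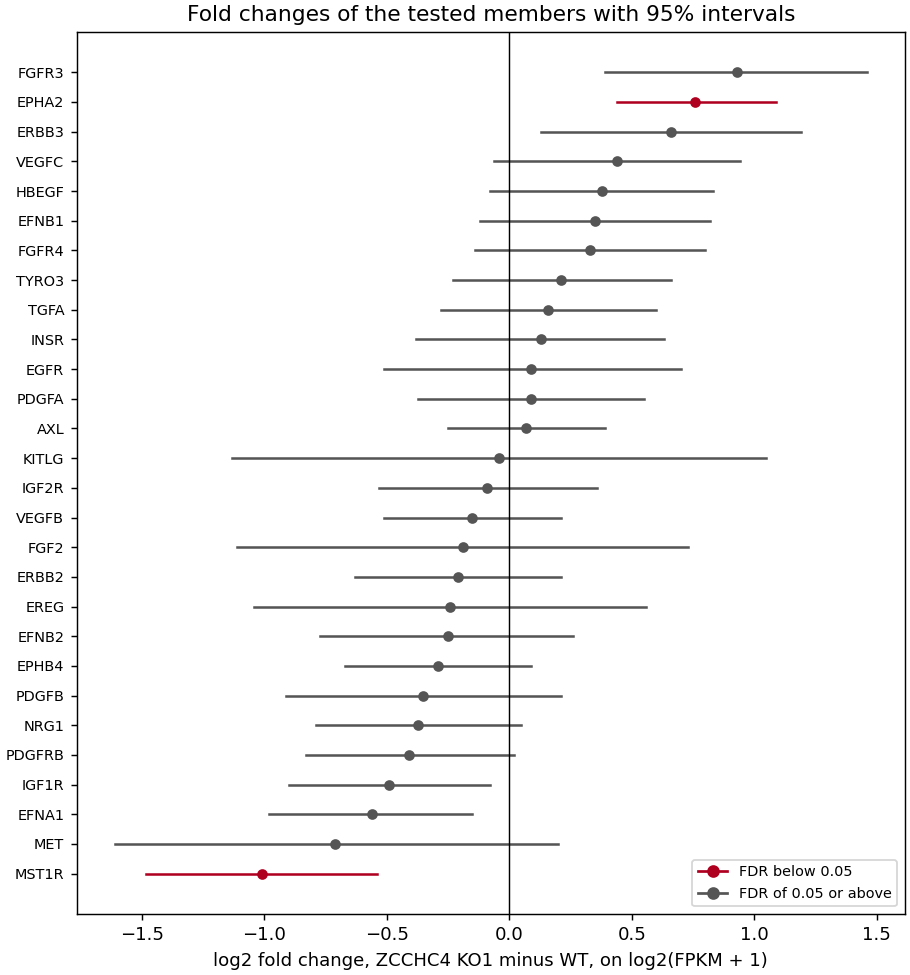
Log2 fold change of each of the 28 tested members, ZCCHC4 KO1 minus WT on log2(FPKM + 1), with its 95% interval from limma, in red where the FDR was below 0.05. EPHA2 (0.76) and MST1R (-1.01) are in red, and KITLG has the widest interval.

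VEGFB and VEGFC transcripts were present, whereas those of the VEGF receptors KDR and FLT1 were close to 0. VEGFB, a ligand of FLT1, had 41.45 and 43.79 FPKM in WT and 41.36 and 35.28 in ZCCHC4 KO1, with a log2 fold change of -0.15 (SE 0.145, adjusted p = 0.6). VEGFC, the ligand for lymphatic vessels, had 2.65 and 2.34 FPKM in WT and 3.3 and 4.22 in ZCCHC4 KO1, which do not overlap (log2 fold change 0.44, SE 0.204, adjusted p = 0.274). KDR was at 0.01 FPKM or less and FLT1 at 0.11 to 0.2. The 8 endothelial markers were at 0.55 FPKM or less.

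Over families, the 21 listed receptors summed to 371.85 and 348.64 FPKM in WT and to 366.55 and 416.55 FPKM in ZCCHC4 KO1, and the groups overlapped. The 21 listed ligands summed to 137.53 and 131.18 FPKM in WT and to 114.75 and 112.58 FPKM in ZCCHC4 KO1, both lower, a log2 ratio of -0.241. The tested receptors had a median log2 fold change of 0.07 and the tested ligands one of -0.15. These sums follow the most abundant genes, EGFR and EPHA2 for the receptors and VEGFB and EFNA1 for the ligands.

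The other genes of receptor tyrosine kinase signalling, a list of 167 by function, gave 109 tested genes, of which 4 were higher (3.67%, beside 1.5% of all genes) and 11 lower (10.1%, beside 4.48%) in ZCCHC4 KO1 at an FDR of 0.05. Their median log2 fold change was -0.13. NCK2 among the higher genes, and CSF1R and DUSP4 among the lower, passed the filter through 1 group alone and so had to differ. The list was drawn up with earlier results of these data known, so these counts are a description. Without WT replicate 1 or without WT replicate 2 these counts were 2 and 4, and without ZCCHC4 KO1 replicate 1 the count of higher genes was 2. For 4 of the lower genes, at least 18 of the 20 nearest tested genes were below 0. ARAF and SH3KBP1 on chromosome X had 20 of 20 below 0, as did FGFR1 on chromosome 8. DUSP4, also on chromosome 8, had 18 of 20. VEGFA, another lower gene, had 16 of 20 below 0. NCK2, a higher gene on chromosome 2, had 18 of 20 above 0, with a median of 0.485.

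Of 7 other receptors tested, FGFR1 and CSF1R were lower. FGFR1, the FGF receptor of mesenchymal cells, had 5.25 and 6.34 FPKM in WT and fell to 1.05 and 1.08 FPKM in ZCCHC4 KO1 (log2 fold change -1.71, SE 0.194, adjusted p = 0.0121). This was a 5.44-fold ratio, in the direction opposite to the FGFR3 and FGFR4 estimates. The median of its neighbours was -0.581. CSF1R, the receptor of macrophage colony-stimulating factor, which lies beside PDGFRB on chromosome 5, had 1.09 and 1.37 FPKM in WT and 0.05 and 0.07 FPKM in ZCCHC4 KO1. It passed the filter through its WT values alone and so had to differ. The 6 listed blood leukocyte markers, CSF1R among them, summed to 17.24 and 19.26 FPKM in WT and to 13.41 and 12.84 FPKM in ZCCHC4 KO1, mostly from CD68, and PTPRC was at 0.12 or less. Their part in the CSF1R values was not tested. Among 9 other ligands tested, VEGFA, the main growth factor of endothelium, was lower at 14.95 and 15.57 FPKM against 32.03 and 27.14 in WT (log2 fold change -0.91, SE 0.159, adjusted p = 0.0338).

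Co-receptors and IGF-binding proteins held 1 higher and 3 lower genes among 8 tested. GPC1, a glypican whose heparan sulfate presents FGFs, rose from 25.16 and 28.25 FPKM in WT to 80.75 and 64.48 FPKM in ZCCHC4 KO1 (log2 fold change 1.4, SE 0.164, adjusted p = 0.0128). SDC1, the heparan sulfate syndecan of epithelia, fell from 30.73 and 32.74 FPKM to 17.23 and 15.04 FPKM (adjusted p = 0.0286). It was outside the rule for named genes and was named after its values were seen. IGFBP7, a secreted protein that binds IGFs weakly, fell from 115.61 and 121.47 FPKM to 29.83 and 26.36 FPKM (log2 fold change -2.04, SE 0.135, adjusted p = 0.00312). IGFBP4, which holds IGFs away from their receptor, fell from 25.49 and 28.79 FPKM to 4.9 and 4.59 FPKM (log2 fold change -2.29, SE 0.172, adjusted p = 0.0046). The medians of their neighbours were 0.00458 and 0.145.

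Downstream of the receptors, 17 adaptors and docking proteins included 1 higher and 1 lower gene. GRB10, an adaptor that dampens insulin and IGF signalling, fell from 4.15 and 4.26 FPKM to 1.55 and 1.4 FPKM (log2 fold change -1.07, adjusted p = 0.0319). NCK2, an adaptor to the actin skeleton, was at 0.55 and 0.72 FPKM in WT and 2.62 and 2.53 FPKM in ZCCHC4 KO1, passed the filter through ZCCHC4 KO1 alone and so had to differ. Among 16 genes of receptor inhibition and downregulation, SH3KBP1, which takes part in receptor endocytosis, fell from 25.27 and 20.44 FPKM to 7.39 and 10.46 FPKM (log2 fold change -1.28, adjusted p = 0.0335). The neighbours of SH3KBP1 had a median of -0.732.

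In the RAS-ERK cascade, 1 of 16 genes was called, ARAF, a RAF kinase, which fell from 87.09 and 91.95 FPKM to 46.4 and 41.93 FPKM (log2 fold change -1.0, adjusted p = 0.0159) beside neighbours with a median of -0.78. Of 15 genes induced by ERK or feeding back on it, FOSL1, an AP-1 subunit, rose from 25.32 and 24.91 FPKM to 45.56 and 39.87 FPKM (log2 fold change 0.74, adjusted p = 0.0443). DUSP4, a phosphatase that inactivates ERK, was at 4.71 and 4.76 FPKM in WT and 0.24 and 0.28 FPKM in ZCCHC4 KO1, and passed the filter through WT alone, so that it had to differ. Its neighbours had a median of -0.574. In the PI3K-AKT arm, with 16 tested, PIK3R2, a regulatory subunit of PI3K, fell from 45.39 and 49.88 FPKM to 29.14 and 28.82 FPKM (log2 fold change -0.70, adjusted p = 0.0446). In limma none of the 5 tested genes of ligand shedding was called. At an unadjusted p below 0.05, RHBDF1 was higher and RHBDF2 lower, where 8.96% and 13.9% of all genes were. The proteases ADAM9, ADAM10 and ADAM17 were not among these. Among called genes that passed the filter through both groups, settings with all 4 libraries ended the calls of VEGFA, SDC1, GRB10, SH3KBP1, FOSL1 and PIK3R2. Their largest adjusted p in limma ran from 0.059 (SDC1) to 0.193 (PIK3R2). It stayed below 0.05 for FGFR1, GPC1, IGFBP4, IGFBP7 and ARAF.

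**Figure D4:**
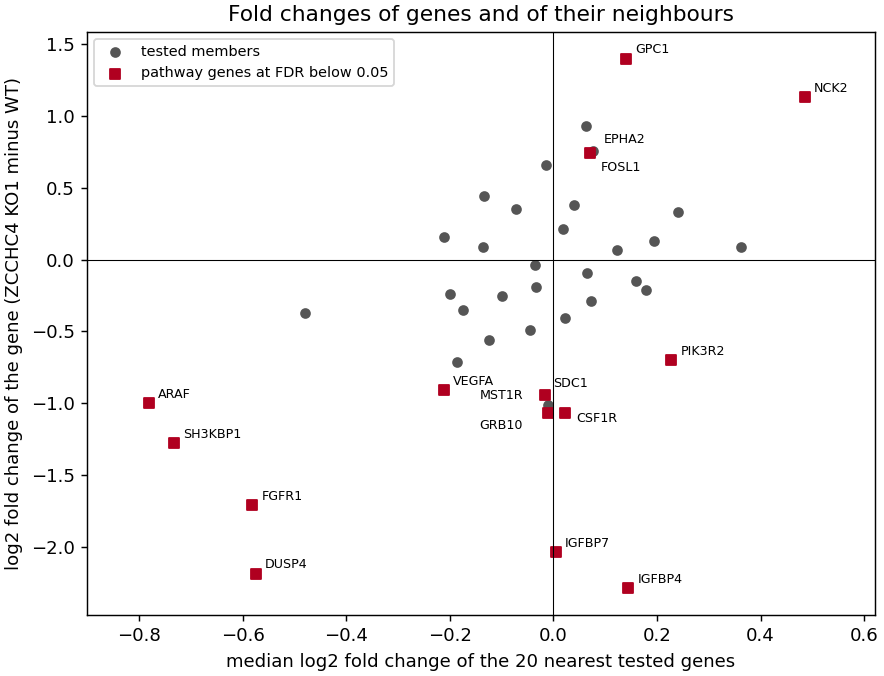
Log2 fold change of each gene (vertical) against the median log2 fold change of its 20 nearest tested genes on the same chromosome (horizontal), for the 28 tested members (grey circles) and the called pathway genes that are reported (red squares). ARAF, SH3KBP1, FGFR1 and DUSP4 lie at the left, with neighbour medians from -0.78 to -0.574, and NCK2 at the right, at 0.485. EPHA2 and MST1R lie near 0.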

How the data were processed

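RNA from 2 WT and 2 ZCCHC4 KO1 libraries was sequenced, with 1 value per gene and library. The authors aligned reads to GRCh38 with Bowtie2 and deposited FPKM values estimated with RSEM, to 2 decimals. Versions, gene annotation and read filters are not given in the sources used here. The supplement names BGISEQ-500 and the labels an Illumina HiSeq. FPKM values carry no read totals, so the depth is unknown and the precision rests on 2 libraries per group. The oxaliplatin-treated libraries were not analysed here.

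Entrez identifiers were matched to RefSeq symbols for GRCh38.p14 (16384 of 16658). Genes with an FPKM of at least 1 in at least 2 libraries (10726) were tested with limma 3.58.1 (R 4.3.3) on log2(FPKM + 1) (lmFit, eBayes with a trend, Benjamini-Hochberg adjustment over all genes tested). Calls used an FDR of 0.05 or the thresholds of the study. GC content came from GENCODE transcripts for 98.4% of tested genes. Promoters came from RefSeq.

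Members and lists were chosen with earlier results of these data known. All members were accounted for, and those called or at 10 FPKM or more in any library were given per library. ZCCHC4 and up to 3 called genes with the smallest p of each pathway list were named. A called gene that this rule names, and a marker gene, are not reported here. On simulated data with 200 of 10726 genes changed by 1 on the log2 scale, 116 were recovered with 6 false calls. With none changed, 0 were called. The simulated noise was independent between genes and libraries and lacked the GC-linked difference between the real libraries. These counts therefore do not give the rate of false calls in the real libraries. Alternatives were another pseudocount (0.1), filter (none or 5), scaling (median ratios, quantiles) and eBayes without a trend. A GC trend per library (a natural spline with 4 degrees of freedom) was also removed. Further settings used the replicate number as a block, other thresholds, or left out each library. A block with the replicate numbers crossed between the groups was added after seeing the data.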

Additional observations from a re-analysis of the deposited data

How the results depend on the processing

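Each group had 2 libraries, and members with AT-rich transcripts varied most between them. Removal of the GC trend gave 4 members higher (EPHA2, ERBB3, FGFR3, HBEGF) and 5 lower (EFNA1, EPHB4, IGF1R, MST1R, PDGFRB), where 12% and 13.5% of all genes were called, and 9 higher and 22 lower pathway genes. Over all genes that setting called 1283 higher and 1445 lower, beside 161 and 480. Median-ratio scaling gave 3 members higher, 417 genes higher and 749 lower in all, and a log2 ratio of summed ligands of -0.167, and quantile normalization gave 2 members higher, with 466 genes higher and 721 lower. No filter and eBayes without a trend each gave 0 members higher, where 0.492% and 1.31% of all genes were. A minimum FPKM of 5, under which MST1R was not tested, gave 0 lower, where 5.17% of all genes were. With an FDR of 0.05 and a fold change of at least 2, 0 members were higher and 1 lower (MST1R), as were 0.932% and 3.25% of all genes. A ratio of mean FPKM of at least 2 without a test held for 2 members higher (ERBB3, FGFR3) and 1 lower (MST1R). By this ratio 2.07% of all genes were higher and 5.93% lower. The counts were the same when set against the thresholds of the study. ZCCHC4 had a log2 fold change of -1.476 with an adjusted p of 0.115 with no filter, and -1.923 with 0.0551 with a pseudocount of 0.1.

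Same-numbered libraries deviated in opposite directions (correlation of deviations across genes -0.787), and the labels give the numbers no further meaning. With the replicate block, 0 members were higher, 0 lower and 7 pathway genes lower, where 0.998% of all genes were higher and 3.31% lower, and the calls of EPHA2 (adjusted p = 0.0907) and MST1R (0.117) ended. With the replicate block and the GC trend removed, 3 members were higher, 2 lower and 17 pathway genes lower (6.73% and 9.35% of all genes). A crossed pairing in the replicate block was chosen after seeing the data. It gave 7 members higher and 8 lower, and 16 pathway genes higher and 39 lower. Of all genes, 21.5% were higher and 27.8% lower. Of the 8 lower members, 1 met the thresholds of the study, by which 3.84% of all genes were lower.

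Leaving out each library in turn gave 0 to 2 members higher and 0 to 1 lower, 2 to 4 pathway genes higher and 4 to 16 lower (0.697% to 5.24% and 1.38% to 10.2% of all genes), and a log2 fold change of ZCCHC4 from -1.807 to -1.145. The estimates of 6 members changed sign when a library was left out, with ranges of -0.241 to 0.430 for EGFR, -0.598 to 0.120 for EREG, -0.181 to 0.008 for IGF2R, -0.037 to 0.288 for INSR, -0.582 to 0.195 for FGF2 and -0.593 to 0.513 for KITLG. IGF2R also became positive with the GC trend removed, with and without the replicate block (0.001), and under quantile normalization (0.015). KITLG did so at 0.024, 0.024 and 0.057, and at 0.014 under median-ratio scaling. The 6 did not pass an FDR of 0.05 in the comparison reported. The causes were not tested. DESeq2 and edgeR were planned for counts and were not run, since the values are FPKM.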
